A study of Mus musculus with 12 samples.

Results

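The genes described here are 44 genes of the lysosome, the acidic compartment in which cells digest material they have taken up or worn out. They encode 10 peptidases, 17 hydrolases of sugars and sulfates, 8 lipid hydrolases and lipid-handling helpers, 6 membrane proteins, 2 parts of the proton pump, and progranulin. They were found by gene symbol in the annotation of a mouse oligonucleotide array (Affymetrix). Of these, 43 had a probe set (the group of short probes that reads 1 transcript) named for that gene alone, and all 43 passed the filter on dim signals, out of 13628 genes tested in the series. Cd63 had no probe set named for it in the annotation used here, so the membrane proteins measured were 5 of 6.

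The tissue was microdissected olfactory epithelium of wild-type male C57BL/6J mice aged 6 weeks, and each array was labelled as 1 biological replicate. Clodronate liposomes (Lip-C), a reagent that kills cells which engulf it and is meant here to deplete macrophages, were given at 50 µl into the nose on 3 days in a row and at 200 µl into a tail vein on the first and last of those days. Control mice received empty liposomes (Lip-O) on the same schedule. On the second day the mice had both olfactory bulbs removed (OBX) or underwent sham surgery. Tissue was taken 48 h later, which gave 4 groups of 3 arrays: Lip-O sham, Lip-O OBX, Lip-C sham and Lip-C OBX. The labels do not say if an array holds RNA of 1 mouse or of several, and p-values therefore measure the spread between these samples.

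Most lysosomal hydrolases are soluble enzymes that receive a mannose 6-phosphate tag in the Golgi and are carried by receptors to endosomes, where the acid made by the vacuolar proton pump sets them to work. The membrane proteins shield the lysosome from its own contents and move cholesterol, ions and digestion products across it. The transcription factor Tfeb and its relatives bind an E-box-like element near the start of many of these genes. Macrophages, which engulf dying cells, hold many lysosomes, and in the olfactory epithelium removal of the bulb cuts the axons of the olfactory sensory neurons, which then die and are cleared. The comparisons below address the transcripts of this compartment after bulb removal and after Lip-C, the reagent meant to deplete macrophages.

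The promoters are shown first, because their letters were not used to choose the members. The element is known from many genes of this kind, so its share among the members is a description only. RefSeq promoters of build GRCm38.p6, which run from 250 bases before to 50 bases after the start of transcription, were found for 38 of the 44 genes. No promoter was matched for Aga, Asah1, Ctsb, Ctsh, Galns and Npc1. The core of the element, CACGTG, was present in 14 of the 38 promoters (36.8%), against 8.09% of the 27025 genes in the promoter table and 11.2% of the 10966 tested genes in it. Its longer form, TCACGTGA, was present in 6 (15.8%), against 1.12% of all genes and 2% of tested genes. Both words read the same on either strand, so each search covered both strands, and every match of the longer form is also a match of the core. A match describes the letters and is no evidence of binding. Ctsd, the cathepsin that changed most after OBX in Lip-O mice, had both forms. Its 250 bases before the start are given 5′ to 3′ on the minus strand, with the core (bases -245 to -240) and the longer form (bases -99 to -92) in capitals.
Ctsd, chr7:142387828-142388077: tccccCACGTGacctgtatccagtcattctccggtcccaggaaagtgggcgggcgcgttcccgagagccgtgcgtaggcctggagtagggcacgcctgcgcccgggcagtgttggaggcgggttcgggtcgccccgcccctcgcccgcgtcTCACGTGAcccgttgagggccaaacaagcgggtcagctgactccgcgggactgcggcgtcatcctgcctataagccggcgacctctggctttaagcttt

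The next 7 windows each hold a match in capitals between 24 flanking bases, or fewer where the promoter ends, 5′ to 3′ on the strand of the gene. Some of these promoters hold further matches that are not in capitals here. Ctsa has another longer form at bases 5 to 12 after the start, in lower case within its window. Gla has another longer form (bases -228 to -221), and Cln3 (-149 to -144) and Mcoln1 (-71 to -66) have a separate core. The 5 other genes with the longer form are shown so that its surroundings can be compared, and Ctsl and Arsa because both have the core alone and passed the test after OBX in Lip-O mice.
Ctsa, chr2:164833736-164833791, plus strand: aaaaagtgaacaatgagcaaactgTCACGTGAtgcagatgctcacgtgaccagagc
Atp6v0d1, chr8:105566037-105566092, minus strand: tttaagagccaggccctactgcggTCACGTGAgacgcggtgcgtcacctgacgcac
Cln3, chr7:126583327-126583382, minus strand: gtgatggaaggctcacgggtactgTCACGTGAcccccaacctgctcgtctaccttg
Gla, chrX:134601169-134601224, minus strand: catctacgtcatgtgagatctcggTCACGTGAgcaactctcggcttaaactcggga
Mcoln1, chr8:3500449-3500504, plus strand: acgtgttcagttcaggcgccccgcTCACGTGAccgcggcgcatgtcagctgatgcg
Ctsl, chr13:64370727-64370770, minus strand: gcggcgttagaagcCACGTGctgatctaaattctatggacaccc
Arsa, chr15:89477411-89477464, minus strand: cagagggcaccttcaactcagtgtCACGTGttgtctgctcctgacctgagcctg
In these 7 windows the first base in capitals lay from 4 bases before the start in Atp6v0d1, whose match spans the start, to 236 in Ctsl. The core of Ctsd, shown further above, began 245 bases before the start. The changes after OBX given below were set against the presence of the core. In Lip-O mice 2 of the 14 genes with it rose (Ctsd and Ctsl), 1 fell (Arsa) and their median log2 change was 0.06, while of the 23 measured genes without the core 6 rose, 1 fell and the median was 0.25. In Lip-C mice 1 of the 14 rose, with a median of 0.04, and 7 of the 23 rose and 1 fell, with a median of 0.27. Over all genes tested, 10.7% rose and 8.89% fell in Lip-O mice, with a median of 0.05. In Lip-C mice 10.3% of all genes rose and 8.86% fell, with a median of 0.04. The difference between genes with and without the element was not tested.

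All arrays had been scaled to the same trimmed mean of 500, and their median signals ran from 117.5 to 134.2. Markers of mature olfactory sensory neurons were measured for 8 of 10 genes and summed to between 45192 and 99678 on every array, so the labelled tissue carried its defining transcripts. In Lip-O OBX arrays the summed signal of 3 liver transcripts was 370 to 1674, against 35 to 144 on all other arrays, and its part in the results was not tested. RNA came from whole tissue, so fewer cells of a type and less RNA per cell cannot be told apart in any value below.

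Bulb removal in Lip-O mice raised a part of the lysosomal genes and lowered 2. Of 43 genes, 8 rose: the proteases Ctsd, Ctsl and Ctsz, the sugar hydrolases Gusb, Man2b1 and Fuca1, the acid lipase Lipa and the granulin precursor Grn. The sialidase Neu1 and the sulfatase Arsa fell. The largest rise was that of Ctsd, 0.77 ± 0.10 (standard error) on the log2 scale, and the largest fall that of Arsa, -0.44 ± 0.09. Log2 changes were above 0 in 32 of the 43, with a median of 0.18 against 0.05 over all genes. Genes that rose made up 18.6% of the lysosomal genes and 10.7% of all genes tested, and genes that fell 4.65% against 8.89%. The groups did not overlap for 16 genes that were higher and 5 that were lower after OBX, 48.8% of the 43, against 37.7% of all genes. These calls are from limma, with 4 group means in 1 model and Benjamini-Hochberg adjustment over all genes at 0.05. Leaving out 1 array at a time gave 4 to 10 calls: 4 without Lip-O sham replicate 3, 6 without Lip-O sham replicate 2 and 6 without Lip-O OBX replicate 1, with Ctsd, Man2b1, Grn and Arsa called each time. With the arrays of these 2 groups alone, 4 genes passed.

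In Lip-C mice, bulb removal raised 11 lysosomal genes and lowered 1. The proteases Ctsb, Ctsd, Ctsh, Ctss and Ctsz rose, as did the sugar hydrolases Hexa, Gusb and Idua, the cholesterol carrier Npc2, the ceramidase Asah1 and Grn. Neu1 was again lower. The largest rise was 0.70 ± 0.13 for Hexa, and Neu1 changed by -0.69 ± 0.10. Of 43 genes, 30 had log2 changes above 0, and the median was 0.25 against 0.04 over all genes. The share that rose was 25.6%, against 10.3% of all genes, and the share that fell 2.33%, against 8.86%. Groups did not overlap for 17 higher and 4 lower genes, 48.8% of the 43, against 40.2% of all genes. With 1 array left out there were 4 to 15 calls: 4 without Lip-C OBX replicate 1, 4 without Lip-C OBX replicate 2, 5 without Lip-C sham replicate 2 and 5 without Lip-C sham replicate 3. Ctsd, Ctsz, Hexa and Neu1 were called in every such fit and under every other alternative run.

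**Figure D1:**
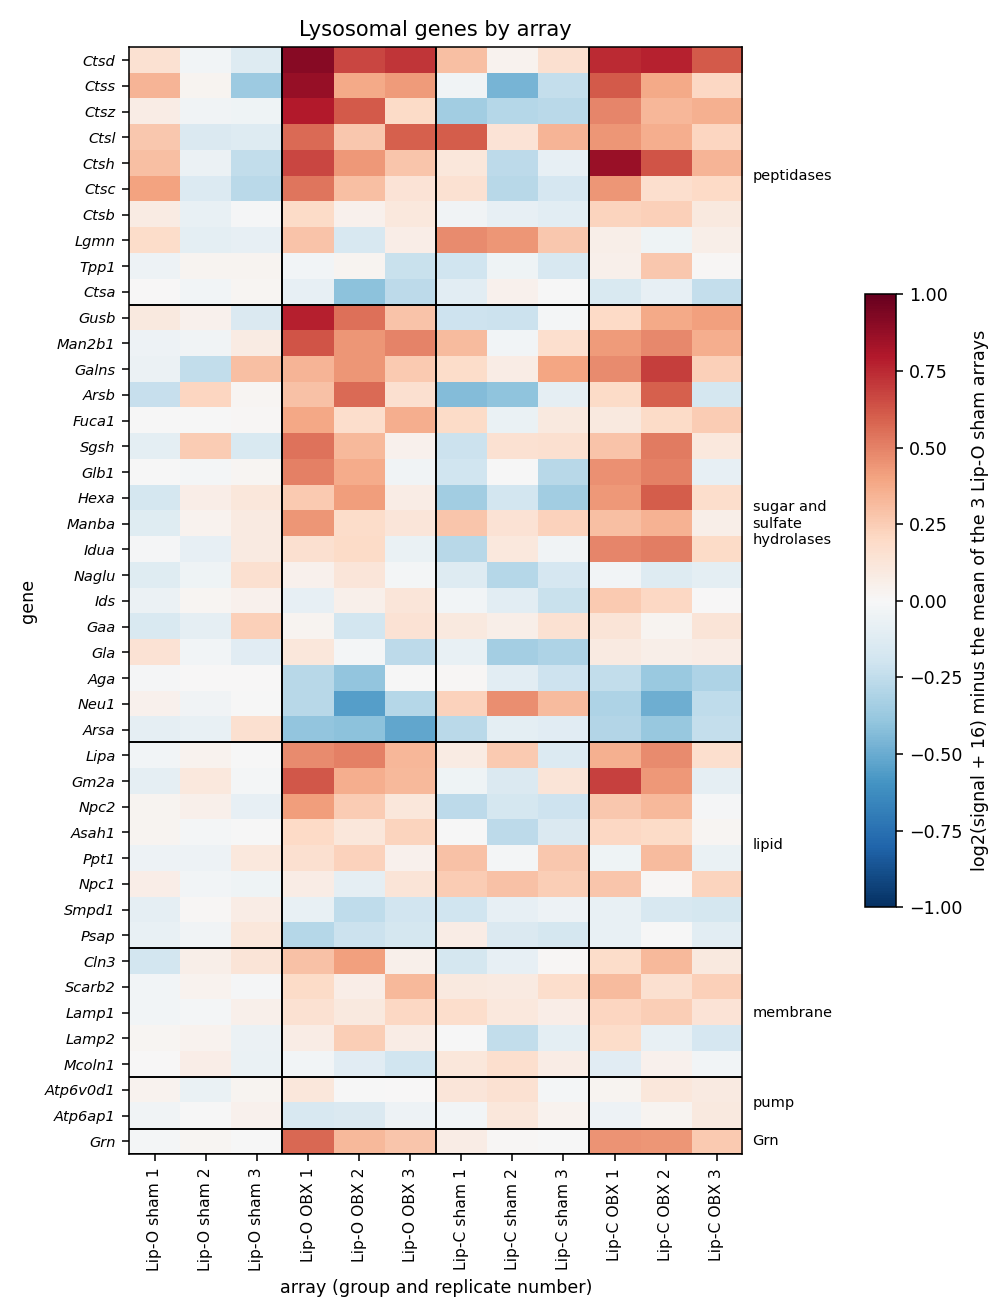
Signal of the 43 measured lysosomal genes on each of the 12 arrays, as log2(signal + 16) minus the mean of the 3 Lip-O sham arrays (colour scale), with genes in rows grouped by role and arrays in columns. Genes that are higher on OBX arrays occur among the peptidases, sugar hydrolases, lipid genes and membrane proteins, while the pump parts Atp6v0d1 and Atp6ap1 lie near 0 throughout.

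Of 10 peptidases, 3 rose after OBX in Lip-O mice (30%, against 10.7% of all genes) and 5 in Lip-C mice (50%, against 10.3%), and none fell. Ctsd is the aspartic protease of the lysosome. Its signals were 4467, 3946 and 3662 in Lip-O sham mice, 7565, 6387 and 6603 in Lip-O OBX mice, and 4941, 4114 and 4491 against 6745, 6840.3 and 6147 in Lip-C mice. Every OBX array was above every sham array, whichever liposome was given. The log2 change was 0.77 ± 0.10 (adjusted p = 0.00161) in Lip-O mice, a ratio of mean signals of 1.7, and 0.54 ± 0.10 (adjusted p = 0.00931) in Lip-C mice, a ratio of 1.46. Ctsz, a cysteine carboxypeptidase, had signals of 2990.2, 2771 and 2746 in Lip-O sham and 4922, 4333 and 3236 in Lip-O OBX mice. In Lip-C mice they were 2220.1, 2321 and 2354 after sham surgery and 3982, 3572 and 3633 after OBX. Again the groups did not overlap, although Lip-O OBX replicate 3 lay close to the sham arrays. Ctsz rose by 0.53 ± 0.13 (adjusted p = 0.0185) and by 0.69 ± 0.13 (adjusted p = 0.0084). In Lip-O mice the adjusted p of Ctsz reached 0.0627 with 1 array left out, and the call was lost when replicate 2 or 3 of Lip-O sham, or replicate 1 or 2 of Lip-O OBX, was left out.

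Ctsl, an endopeptidase, was higher after OBX in Lip-O mice, from 8149, 6113 and 6169.7 to 10012, 8150.4 and 10227. In Lip-C mice its signals were 10282, 7407 and 8561 after sham surgery and 9164, 8702 and 7829 after OBX, with overlapping groups. Its change was 0.48 ± 0.15 (adjusted p = 0.049) in Lip-O and -0.02 ± 0.15 (adjusted p = 0.942) in Lip-C mice, where the 95% interval was -0.36 to 0.32. The call in Lip-O mice was just under the threshold and was lost in 8 of 12 fits that left out an array, those without replicate 2 or 3 of Lip-O sham, replicate 1 or 3 of Lip-O OBX, replicate 3 of Lip-C sham or any 1 Lip-C OBX array, with adjusted p up to 0.146.

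Ctsb, Ctsh and Ctss are cysteine proteases, and Ctss is best known from antigen-presenting cells. Ctsh, an aminopeptidase, had signals of 1799, 1385 and 1568 in Lip-C sham and 3047, 2582 and 2117 in Lip-C OBX mice, a rise of 0.69 ± 0.18 (adjusted p = 0.0238). Ctss went from 2112, 1560.4 and 1834 to 3319.8, 2819.7 and 2491, a rise of 0.64 ± 0.20 (adjusted p = 0.0458). Both sets of OBX arrays lay above the sham arrays. Ctsb rose by 0.26 ± 0.07 (adjusted p = 0.0346), the smallest called rise in Lip-C mice. In Lip-O mice the differences were 0.46 ± 0.18 (adjusted p = 0.0916) for Ctsh, 0.56 ± 0.20 (adjusted p = 0.0722) for Ctss and 0.11 ± 0.07 (adjusted p = 0.318) for Ctsb, none past the threshold. Same-numbered Lip-O sham and Lip-O OBX arrays deviated together from their group means (correlations of 0.13 to 0.31 over genes), and with the replicate number as a block Ctss and Ctsh passed in Lip-O mice (adjusted p = 0.0122 and 0.0121), as did the dipeptidyl peptidase Ctsc (log2 change 0.33, adjusted p = 0.0409 with the block and 0.238 without). Without Lip-O sham replicate 1, Ctss and Ctsh also passed in Lip-O mice (adjusted p = 0.039 and 0.0458). The calls in Lip-C mice were each lost without Lip-C sham replicate 2 or 3 or Lip-C OBX replicate 1 or 2, that of Ctsb and Ctss also without Lip-C sham replicate 1, and that of Ctss without replicate 2 of Lip-O sham or replicate 2 or 3 of Lip-O OBX, with adjusted p up to 0.0934 for Ctsh, 0.156 for Ctss and 0.112 for Ctsb.

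The remaining peptidases did not pass in either comparison through the brightest probe set, the one used for each gene, but Tpp1 passed through another. Lgmn, the asparaginyl endopeptidase that processes other cathepsins, had signals of 3709, 3051 and 3081 in Lip-O sham and 3983, 2920.3 and 3425 in Lip-O OBX mice. In Lip-C mice the signals were 4533, 4448 and 3946 after sham surgery and 3405, 3179 and 3397 after OBX, so that here every OBX array was below every sham array. Its log2 differences were 0.06 ± 0.12 (adjusted p = 0.749) and -0.37 ± 0.12 (adjusted p = 0.0541). Ctsa, the carboxypeptidase that holds Neu1 and the galactosidase Glb1 in 1 complex, differed by -0.25 ± 0.09 (adjusted p = 0.0723) and -0.13 ± 0.09 (adjusted p = 0.311). Tpp1, a tripeptidyl peptidase, differed by -0.08 and 0.25 ± 0.09 (adjusted p = 0.0893). Its second probe set, with a mean signal of 698.5 against 2721, rose in both comparisons when each probe set was tested, by 0.61 ± 0.11 (adjusted p = 0.00652) in Lip-O and 0.41 ± 0.11 (adjusted p = 0.0372) in Lip-C mice, so that the direction in Lip-O mice depends on the probe set. Lgmn passed in Lip-C mice without replicate 1 of Lip-O sham or replicate 1 or 2 of Lip-O OBX (adjusted p down to 0.0368), and Ctsa in Lip-O mice without Lip-O OBX replicate 1 (0.038).

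**Figure D2:**
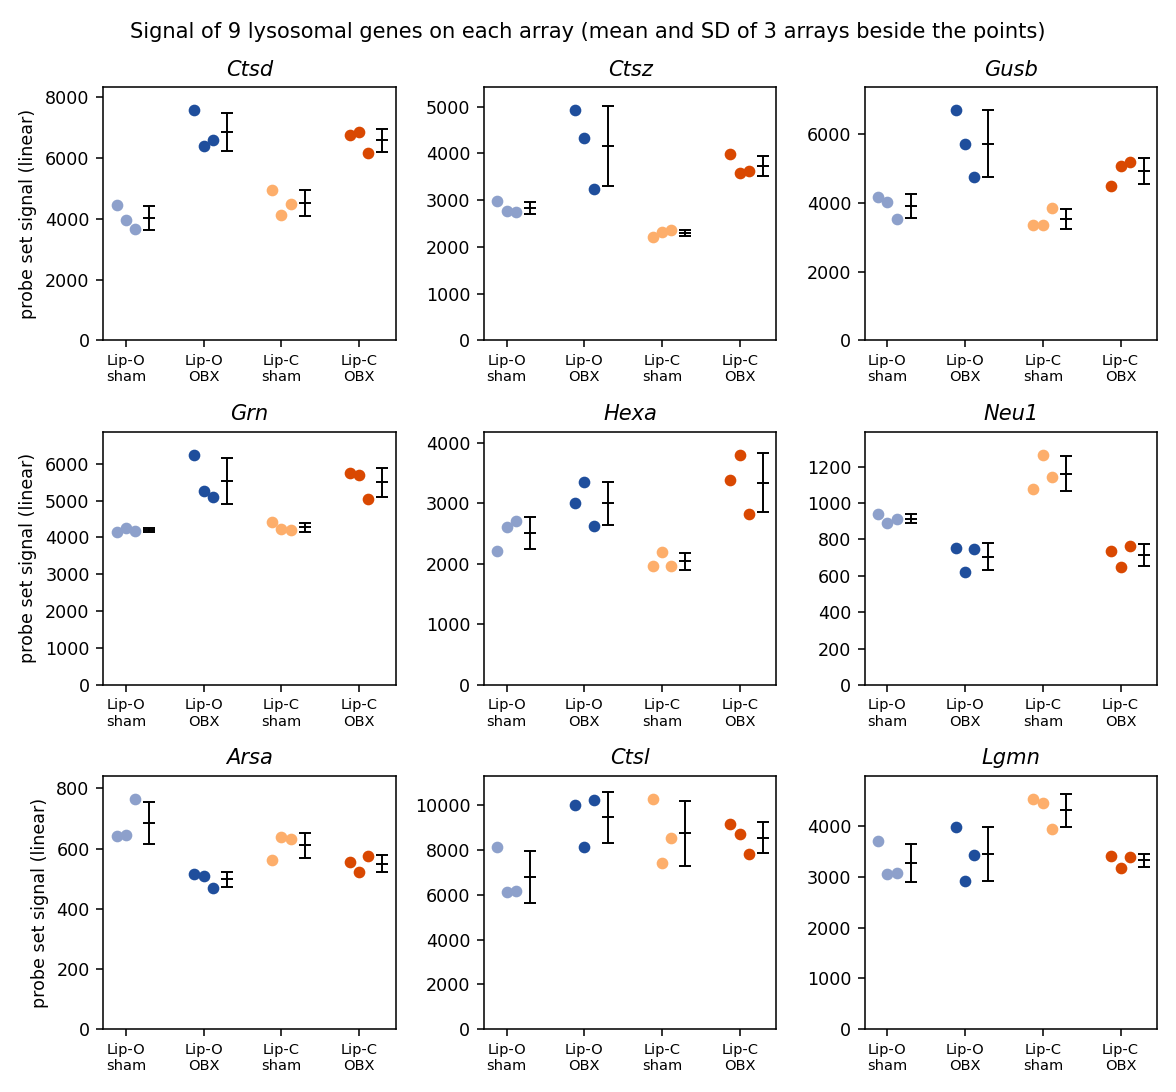
Probe set signal (linear scale, axes from 0) of 9 lysosomal genes on the 3 arrays of each group, with the mean and SD beside the points. Ctsd, Ctsz, Gusb and Grn are higher on all OBX arrays than on the sham arrays of the same liposome group, and Neu1 is lower on all of them.

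Hydrolases of sugars and sulfates moved both ways: of 17, 3 rose (17.6%) and 2 fell (11.8%) in Lip-O mice, where 10.7% of all genes rose and 8.89% fell. In Lip-C mice 3 rose (17.6%, against 10.3% of all genes) and 1 fell (5.88%, against 8.86%). Gusb, the beta-glucuronidase that helps break down glycosaminoglycans, had signals of 4177, 4021 and 3516 in Lip-O sham and 6679, 5709 and 4738 in Lip-O OBX mice. In Lip-C mice it had 3363, 3352 and 3845 and 4472, 5069.9 and 5185. No OBX array was as low as a sham array of its liposome group. Gusb rose by 0.54 ± 0.13 (adjusted p = 0.0165) and 0.48 ± 0.13 (adjusted p = 0.0283), and without replicate 3 of Lip-O sham or replicate 1 of Lip-O OBX its adjusted p in Lip-O mice reached 0.0625. In Lip-C mice it reached 0.0887, and the call was lost without any 1 of the Lip-C OBX arrays or Lip-C sham replicate 1 or 2. In Lip-O mice it was also lost with the mean over both probe sets (0.36, adjusted p = 0.0711) and with the arrays of the 2 groups alone (adjusted p = 0.0622), and the second probe set gave 0.19 ± 0.14 (adjusted p = 0.397) there and 0.62 ± 0.14 (adjusted p = 0.0211) in Lip-C mice.

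Hexa is the alpha subunit of the beta-hexosaminidase that degrades the ganglioside GM2. It had signals of 1965, 2204 and 1960.4 in Lip-C sham mice and 3391, 3807 and 2833 in Lip-C OBX mice, and the ratio of mean signals was 1.64. The rise was 0.70 ± 0.13 (adjusted p = 0.0083), while in Lip-O mice signals of 2209.6, 2618 and 2709 after sham surgery and 3010.0, 3356 and 2635 after OBX overlapped and differed by 0.25 ± 0.13 (adjusted p = 0.199). Gm2a, the activator protein that presents GM2 to this enzyme, differed by 0.43 ± 0.17 (adjusted p = 0.104) in Lip-O and 0.36 ± 0.17 (adjusted p = 0.162) in Lip-C mice, and passed in Lip-O mice without Lip-C OBX replicate 3 (adjusted p = 0.0271). A second, dimmer probe set of Gm2a rose in Lip-C mice by 0.69 ± 0.15 (adjusted p = 0.0183).

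Man2b1, the alpha-mannosidase of glycoprotein breakdown, rose in Lip-O mice from 1317, 1334 and 1444 to 2116, 1854 and 1927, a change of 0.52 ± 0.10 (adjusted p = 0.00579). In Lip-C mice it had 1706, 1338 and 1534 after sham surgery and 1836, 1907 and 1759 after OBX. Those groups did not overlap either, with a difference of 0.27 ± 0.10 (adjusted p = 0.0736) that passed without Lip-C sham replicate 1 (adjusted p = 0.0402). Fuca1, the alpha-fucosidase, rose in Lip-O mice from a mean of 2436 ± 14.9 (SD, n = 3) to 3027 ± 237, or 0.31 ± 0.09 (adjusted p = 0.033), and differed by 0.11 ± 0.09 (adjusted p = 0.418) in Lip-C mice. The mean over the 4 probe sets of Fuca1 gave -0.11 in Lip-O mice, the opposite direction, and with 1 array left out the adjusted p reached 0.111, the call being lost without any 1 Lip-O sham array or Lip-O OBX replicate 1 or 3.

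Idua and Ids act one after the other on iduronate in heparan and dermatan sulfate. Idua, the iduronidase, had signals of 245, 324 and 292 in Lip-C sham and 427, 435 and 345 in Lip-C OBX mice, a rise of 0.47 ± 0.12 (adjusted p = 0.028). In Lip-O mice it differed by 0.10 ± 0.12 (adjusted p = 0.625). The rise in Lip-C mice was lost without Lip-C sham replicate 1 or 3 or Lip-C OBX replicate 1 or 2, with adjusted p up to 0.0997. It was also lost with the mean over both probe sets (0.27, adjusted p = 0.143) and with the arrays of the 2 groups alone (adjusted p = 0.0648), and the second probe set of Idua gave 0.07 ± 0.17 (adjusted p = 0.813). Ids, the iduronate sulfatase, differed by 0.28 ± 0.09 (adjusted p = 0.0572) in Lip-C and 0.03 in Lip-O mice, and passed in Lip-C mice without Lip-C OBX replicate 3 (adjusted p = 0.0236).

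Neu1, the sialidase that trims sialic acid from glycoproteins and gangliosides, fell with both liposomes. Its signals were 939, 889 and 913 in Lip-O sham and 751, 619 and 748 in Lip-O OBX mice. In Lip-C mice they were 1077, 1267 and 1143 after sham surgery and 735, 647 and 763 after OBX. The OBX arrays of the liposome groups were at about the same level, and the Lip-C sham arrays were the highest of all. Neu1 changed by -0.37 ± 0.10 (adjusted p = 0.0269) in Lip-O mice, a ratio of mean signals of 0.773, and by -0.69 ± 0.10 (adjusted p = 0.00469) in Lip-C mice, a ratio of 0.615. In Lip-O mice the call was lost without any 1 Lip-O sham array or Lip-O OBX replicate 2 (adjusted p up to 0.0828). Arsa, the sulfatase that degrades the myelin lipid sulfatide, had signals of 641, 646 and 764 in Lip-O sham and 515, 509 and 470.3 in Lip-O OBX mice and fell by 0.44 ± 0.09 (adjusted p = 0.00831). In Lip-C mice its signals of 563, 637 and 630.3 and 554, 521 and 575 overlapped, with a difference of -0.14 ± 0.09 (adjusted p = 0.275).

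The other sugar and sulfate hydrolases, Gaa, Gla, Glb1, Manba, Naglu, Sgsh, Arsb, Galns and Aga, did not pass in either comparison through the probe set used. Their log2 differences ran from -0.22 (Aga) to 0.35 (Galns) in Lip-O mice and from -0.21 (Aga) to 0.51 (Arsb) in Lip-C mice. Nearest to the threshold in Lip-C mice were the galactosidases Gla (0.31 ± 0.11 (adjusted p = 0.0766)) and Glb1 (0.45 ± 0.17 (adjusted p = 0.0846)), and Glb1 passed without Lip-C OBX replicate 3 (adjusted p = 0.0156). Dimmer probe sets of 3 of these genes passed when each was tested: in Lip-O mice one of Gaa rose by 0.53 ± 0.12 (adjusted p = 0.0138), where the one used differed by -0.006, and one of Sgsh changed by -0.96 ± 0.29 (adjusted p = 0.044), where the one used differed by 0.31. In Lip-C mice one of Arsb changed by -0.69 ± 0.19 (adjusted p = 0.0364), against 0.51 for the one used.

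Of 8 lipid hydrolases and helpers, 1 rose in Lip-O mice (12.5%, against 10.7% of all genes) and 2 in Lip-C mice (25%, against 10.3%), and none fell. Lipa, the acid lipase that frees cholesterol and fatty acids from stored lipid, had signals of 500.2, 522 and 508 in Lip-O sham and 714, 731 and 647 in Lip-O OBX mice. It rose by 0.44 ± 0.11 (adjusted p = 0.0208), and in Lip-C mice its groups overlapped, with a difference of 0.26 ± 0.11 (adjusted p = 0.121). The call was lost without replicate 1 or 3 of Lip-O sham or replicate 1 or 2 of Lip-O OBX (adjusted p up to 0.0687). Npc2, which hands the freed cholesterol to the transporter Npc1, had signals of 4277, 4542 and 4445 in Lip-C sham and 6174, 6400.0 and 5077 in Lip-C OBX mice. Its rise there was 0.40 ± 0.11 (adjusted p = 0.0262), against 0.26 ± 0.11 (adjusted p = 0.107) in Lip-O mice. Npc1 itself differed by 0.04 ± 0.09 (adjusted p = 0.809) and -0.09 ± 0.09 (adjusted p = 0.469). Asah1, the acid ceramidase, rose in Lip-C mice from 3527, 2941 and 3183 to 4084, 4023 and 3567, or 0.27 ± 0.08 (adjusted p = 0.0458), and differed by 0.18 ± 0.08 (adjusted p = 0.164) in Lip-O mice. The rise of Npc2 was lost without any 1 Lip-C sham array or Lip-C OBX replicate 1 or 2 (adjusted p up to 0.0953), and that of Asah1 in 10 of 12 such fits (up to 0.149), all but those without Lip-C sham replicate 1 or Lip-C OBX replicate 3. Psap, the precursor of the saposins that help lipid hydrolases, differed by -0.22 ± 0.09 (adjusted p = 0.0908) in Lip-O and 0.02 ± 0.09 (adjusted p = 0.877) in Lip-C mice. When each probe set was tested, its second one differed by -0.285 ± 0.091 (adjusted p = 0.0546) in Lip-O and 0.114 ± 0.091 (adjusted p = 0.436) in Lip-C mice. The sphingomyelinase Smpd1 (-0.17 and -0.02) and the thioesterase Ppt1 (0.14 and -0.11) did not pass.

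No membrane protein and no pump part passed in any comparison through the probe set used. Lamp1, the abundant glycoprotein of the lysosomal membrane, had signals of 7288, 7343 and 7695 in Lip-O sham and 8266, 7969 and 8594 in Lip-O OBX mice. These do not overlap, but the difference of 0.15 ± 0.07 (adjusted p = 0.138) did not pass over all genes, and in Lip-C mice it was 0.08 ± 0.07 (adjusted p = 0.409). Lamp2, which serves in autophagy, differed by 0.13 ± 0.10 and 0.09 ± 0.10, and Scarb2, which carries glucocerebrosidase to the lysosome, by 0.19 ± 0.08 and 0.12 ± 0.08. The calcium channel Mcoln1 differed by -0.11 ± 0.07 and -0.15 ± 0.07, and Cln3, whose loss causes a neuronal storage disease, by 0.25 ± 0.12 and 0.28 ± 0.12. Atp6v0d1 (0.04 ± 0.07 and -0.01 ± 0.07) and Atp6ap1 (-0.12 ± 0.07 and -0.02 ± 0.07) belong to the proton pump. For the probe sets used for these 7 genes the highest upper bound of a 95% interval (not adjusted over genes) in either comparison was 0.54 (Cln3 in Lip-C mice), and a rise as small as that of Ctsb in Lip-C mice lies inside several of the intervals. Other probe sets gave other values. In Lip-O mice the 3 others of Lamp2 differed by 0.30 ± 0.15, 0.42 ± 0.14 and 0.25 ± 0.08 (adjusted p = 0.196, 0.0629 and 0.0659), with an interval of 0.11 to 0.73 for the highest. When each probe set was tested, a dimmer one of Cln3 changed by -0.35 ± 0.10 (adjusted p = 0.0356) in Lip-O mice, opposite to the one used, and a second one of Mcoln1 by -0.35 ± 0.10 (adjusted p = 0.0441) in Lip-C mice.

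Grn encodes progranulin, which is cut into granulins in the lysosome and is made by macrophages, neurons and other cells. Its signals were 4153, 4267 and 4182 in Lip-O sham and 6245, 5261 and 5087 in Lip-O OBX mice. In Lip-C mice they were 4414, 4232 and 4192 and 5756, 5697 and 5036. The sham arrays were close together and all OBX arrays lay above them. Grn rose by 0.39 ± 0.09 (adjusted p = 0.0139) and 0.36 ± 0.09 (adjusted p = 0.0225), and its 2 other probe sets gave 0.71 and 0.66 in Lip-O mice and 0.53 and 0.55 in Lip-C mice. In Lip-C mice the call was lost without Lip-C sham replicate 2 or 3 or Lip-C OBX replicate 1 or 2 (adjusted p up to 0.0846), and with the arrays of the 2 Lip-O groups alone that in Lip-O mice was lost.

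The OBX comparisons in Lip-O and Lip-C mice use different arrays and share the estimate of the spread. Ctsd, Ctsz, Gusb, Grn and Neu1 passed in both, with the same direction each time. These 5 are 50% of the genes called in Lip-O mice and 41.7% of those called in Lip-C mice. Over all genes tested, those called in both were 39.3% and 40.2%. Log2 changes had the same sign in 35 of the 43 genes (81.4%), 27 above and 8 below 0, against 67.8% of all genes, and in 16 of the 17 genes called in either comparison (94.1%, against 82.9% of all such genes), the exception being Ctsl. Whether the change itself differed between liposomes is the interaction, for which no lysosomal gene passed in limma, as for 0% of all genes. At an unadjusted p under 0.05 there were 7 lysosomal genes (16.3%) and 2405 of all genes (17.6%). The lowest adjusted p was 0.225 for Lgmn, whose interaction was -0.43 ± 0.17 with a 95% interval of -0.81 to -0.06. Next came Tpp1 (0.32 ± 0.13 (adjusted p = 0.246)), Hexa (0.44 ± 0.18 (adjusted p = 0.247)), Arsa (0.30 ± 0.13 (adjusted p = 0.258)) and Ctsl (-0.50 ± 0.21 (adjusted p = 0.262)). A gene called with 1 liposome and not with the other is therefore not shown to respond differently.

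**Figure D3:**
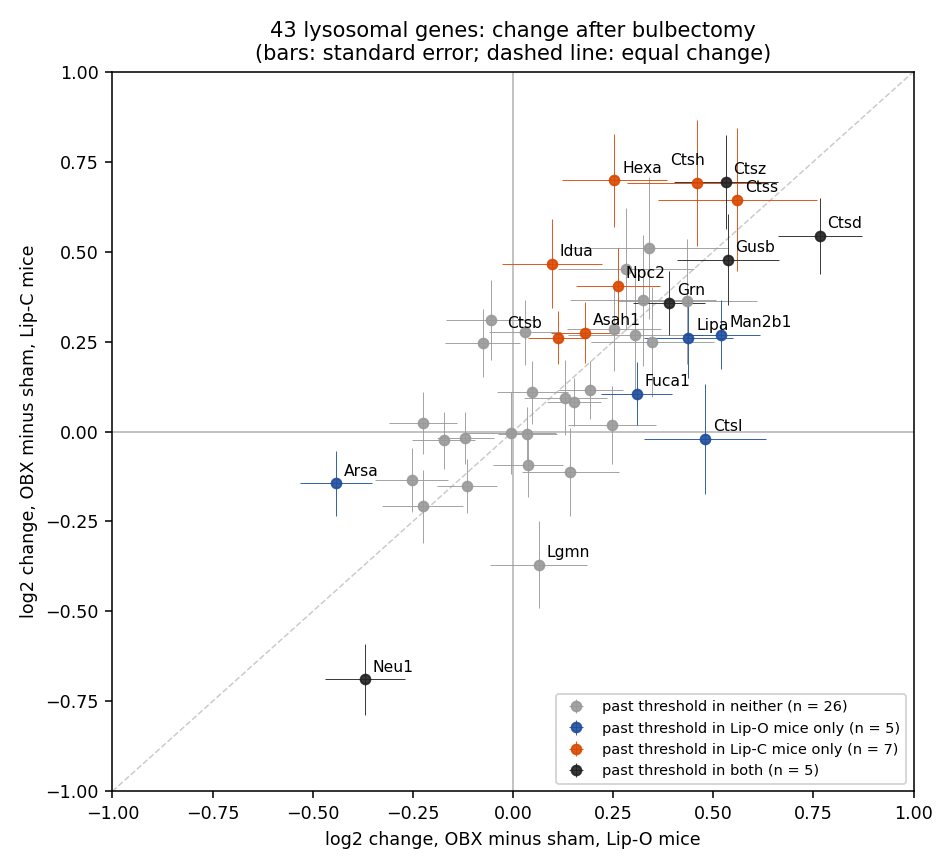
Log2 change after OBX in Lip-O mice (horizontal axis) against that in Lip-C mice (vertical axis) for the 43 lysosomal genes, with standard errors as bars and equal change as a dashed line. Most points are above 0 on both axes, Neu1 is low on both axes, and Ctsl and Lgmn lie farthest toward the lower right of the line.

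Lip-C changed none of the 43 lysosomal genes past the threshold in sham mice. In limma 0 of 43 genes passed, against 2.1% of all genes, and 6 did at an unadjusted p under 0.05 (14%, against 21.9% of all genes). The median log2 difference was -0.07, against 0.0032 over all genes. Groups did not overlap for 7 genes that were higher and 5 that were lower with Lip-C, 27.9% of the 43, against 29.6% of all genes. Nearest to the threshold were Neu1 (0.34 ± 0.10 (adjusted p = 0.0913)), Lgmn (0.40 ± 0.12 (adjusted p = 0.0988)) and Npc1 (0.26 ± 0.09 (adjusted p = 0.122)), all higher on every Lip-C sham array than on any Lip-O sham array. The Npc1 signals were 574, 538 and 530.2 with Lip-O and 655, 673 and 652 with Lip-C. The same Lip-C sham arrays enter the OBX comparison in Lip-C mice, in which Neu1 fell and Lgmn had its negative difference, so the values of these genes in those comparisons are not independent. Ctsl differed by 0.36 ± 0.15 (adjusted p = 0.199) and Ctsz by -0.30 ± 0.13 (adjusted p = 0.21). The replicate block left the count at 0. Every same-numbered pair deviated together here, which is seen in the data and not stated by the labels. Tested probe set by probe set, Arsb and Ids were lower and Lipa and Man2b1 higher through a second, dimmer probe set, which gave 4 genes. The share of all genes that pass in that way was not counted.

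In OBX mice, too, Lip-C changed none of the 43 lysosomal genes past the threshold. In limma 0 of 43 genes passed, against 0.345% of all genes, and 1 gene, Idua, had an unadjusted p under 0.05 (2.33%, against 12.7% of all genes). The median was -0.0038, against 0.005 over all genes, and groups did not overlap for 4 higher and 1 lower gene, 11.6% of the 43, against 16% of all genes. Idua had signals of 337, 345 and 286 with Lip-O and 427, 435 and 345 with Lip-C, a difference of 0.30 ± 0.12 (adjusted p = 0.342). For genes that rose after OBX with both liposomes, the difference between liposomes was -0.06 ± 0.10 for Ctsd with a 95% interval of -0.29 to 0.17, -0.01 ± 0.09 for Grn (-0.20 to 0.19) and -0.14 ± 0.13 for Ctsz (-0.43 to 0.15). Gusb differed by -0.21 ± 0.13 (adjusted p = 0.541), and Psap, Tpp1 and Atp6ap1 by 0.17, 0.19 and 0.14, none past the threshold.

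**Figure D4:**
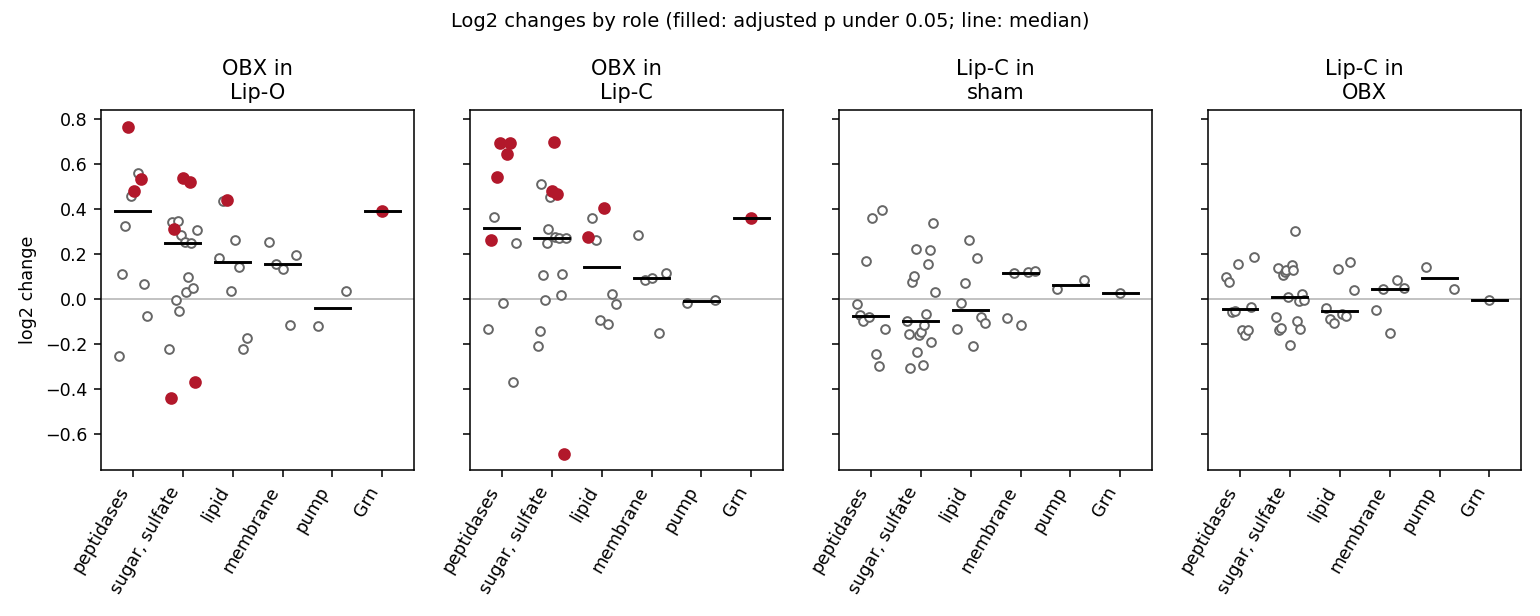
Log2 change of each measured lysosomal gene in 4 comparisons (panels), by role (horizontal axis), with genes past the limma threshold filled and the median of each role as a line. Filled points appear in the OBX panels among peptidases, sugar and sulfate hydrolases, lipid genes and Grn, and none appear for membrane proteins, pump parts or the Lip-C panels.

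Other genes of the pathway moved in both directions. Of 28 further lysosomal genes, 22 were measured, and 5 rose (22.7%, against 10.7% of all genes) and 1 fell (4.55%, against 8.89%) after OBX in Lip-O mice, with a median of 0.13. In Lip-C mice 3 rose (13.6%, against 10.3%) and 3 fell (13.6%, against 8.86%), with a median of 0.10. Slc11a1, the divalent metal transporter of phagocyte lysosomes, rose by 0.64 ± 0.18 (adjusted p = 0.0326) and 0.73 ± 0.18 (adjusted p = 0.0219). The sialomucin Cd164 also rose in both (0.31 and 0.29). Acp2, an acid phosphatase of the lysosomal membrane, fell by 0.58 and 0.64 (adjusted p = 0.00607 and 0.00619). In Lip-O mice the cystine exporter Ctns (0.42), the sialic acid exporter Slc17a5 (0.35) and the cathepsin Ctso (0.44) rose. In Lip-C mice Laptm4a (0.35) rose, and Mfsd8 (-0.51) and Abca2 (-0.67) fell. Of the proton pump, 17 of 18 further genes were measured, of which 1 fell in Lip-O mice (5.88%) and 2 rose (11.8%) and 1 fell (5.88%) in Lip-C mice, shares near or below those of all genes. Atp6v0e2 fell in both comparisons (-0.63 ± 0.11 (adjusted p = 0.00515) and -0.61 ± 0.11 (adjusted p = 0.00797)), and Atp6v0e (0.52) and Atp6v0a2 (0.39) rose in Lip-C mice.

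Of 19 genes that deliver lysosomal enzymes or control their transcription, 2 rose in Lip-O mice (10.5%), about the share of all genes that rose (10.7%), and 1 rose and 1 fell in Lip-C mice (5.26% each), below the shares of all genes (10.3% and 8.86%). Tfeb rose in Lip-O mice by 0.52 ± 0.14 (adjusted p = 0.0295) and differed by 0.08 ± 0.14 (adjusted p = 0.721) in Lip-C mice, and its relatives Tfe3 and Mitf did not pass. Sumf1, which activates sulfatases such as Arsa and Ids, rose in Lip-O mice by 0.40 ± 0.08 (adjusted p = 0.00959). Igf2r, the large mannose 6-phosphate receptor, rose in Lip-C mice by 0.72 ± 0.16 (adjusted p = 0.0144), and the tethering protein Vps33a fell by 0.37 (adjusted p = 0.0315). Of 14 autophagy genes, 2 rose (14.3%) and 1 fell (7.14%) in Lip-O mice and 1 rose in Lip-C mice (7.14%), against 10.7%, 8.89% and 10.3% of all genes. Wipi1 rose in both comparisons (0.53 and 0.48), and in Lip-O mice Ulk1 rose (0.30) and Gabarapl2 fell (-0.37). Lip-C in sham mice changed 2 genes of these lists: Ctsk (-2.37 ± 0.37 (adjusted p = 0.0215)) and Acp5 (-3.06 ± 0.54 (adjusted p = 0.0284)) fell, both of which are also osteoclast markers. They make up 9.09% of the 22 further lysosomal genes measured, while 0.814% of all genes fell.

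Markers of several other cell types differed between the groups. Of all genes tested, 10.7% rose and 8.89% fell after OBX in Lip-O mice, and 10.3% rose and 8.86% fell in Lip-C mice. All 18 macrophage markers were measured. Their summed signal was 8499 to 15438 on Lip-O sham arrays and 11440 to 20332 on Lip-O OBX arrays, and 6696 to 9896 on Lip-C sham against 11768 to 15700 on Lip-C OBX arrays. The Lip-O groups overlap, but each Lip-O OBX array was above the same-numbered Lip-O sham array, at 1.32, 1.43 and 1.35 times its level. The numbers come from the sample titles, which do not say that arrays were paired. Of the 18, 6 rose after OBX in Lip-O mice (33.3%) and 9 in Lip-C mice (50%), and none fell. Cd68, a lysosomal glycoprotein of macrophages, rose by 1.16 ± 0.25 (adjusted p = 0.0115) and 1.46 ± 0.25 (adjusted p = 0.0069). In sham mice Lip-C lowered 2 of the 18 (11.1%, against 0.814% of all genes), Csf1r (-0.83 ± 0.18 (adjusted p = 0.0426)) and Aif1 (-0.90 ± 0.20 (adjusted p = 0.047)), and none was at 0. In OBX mice Lip-C lowered 0 of the 18 past the threshold (0%, against 0.22% of all genes). The median log2 difference there was -0.14, with 7 of the 18 above 0, and the summed signals of Lip-O OBX and Lip-C OBX arrays overlapped. A depletion of macrophages is thus not shown by these markers in OBX mice. Osteoclast markers, 6 of 8 measured, summed to 8587 to 10080 in Lip-O sham, 3999 to 10199 in Lip-O OBX, 1722 to 2241 in Lip-C sham and 2537 to 6524 in Lip-C OBX mice. In sham mice 3 of the 6 were lower with Lip-C (50%, against 0.814% of all genes). Mature neuron markers summed to 86391 to 99678 in Lip-O sham and 45192 to 72101 in Lip-O OBX mice, and to 92378 to 98047 and 63036 to 77276 in Lip-C mice. Of the 8 measured, 7 fell in Lip-O mice (87.5%) and 4 in Lip-C mice (50%). Replicate 3 had the highest neuron sum (72101 and 77276) and the lowest macrophage sum (11440 and 11768) in both OBX groups. The same held for replicate 3 of Lip-O sham (99678 and 8499). The 8 neutrophil markers summed to 28688 to 38173 in Lip-O sham, 28992 to 32792 in Lip-O OBX, 32165 to 48008 in Lip-C sham and 34568 to 59315 in Lip-C OBX mice, and none passed after OBX. Markers of horizontal basal cells, the reserve stem cells of the epithelium, summed to 2749 to 3602 in Lip-O sham and 4043 to 4188 in Lip-O OBX mice, and to 2350.0 to 3113 and 3385 to 4475 in Lip-C mice, and 2 and 3 of the 5 rose (40% and 60%). Ensheathing or Schwann cell markers, 4 of 6 measured, summed to 6138 to 8225 and 8963 to 10077 in Lip-O mice, without overlap, and to 6564 to 8568 and 8093 to 9225 in Lip-C mice, and 1 of the 4 rose in each (25%). Sustentacular cell markers, all 7 measured, summed to 76621 to 85277 and 84759 to 92934 in Lip-O mice and to 69932 to 72383 and 81506 to 86308 in Lip-C mice, without overlap in the latter. Of these, 2 rose in Lip-O mice (28.6%) and 1 in Lip-C mice (14.3%), the latter share near that of all genes. The part of these cell types in the lysosomal results was not tested.

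**Figure D5:**
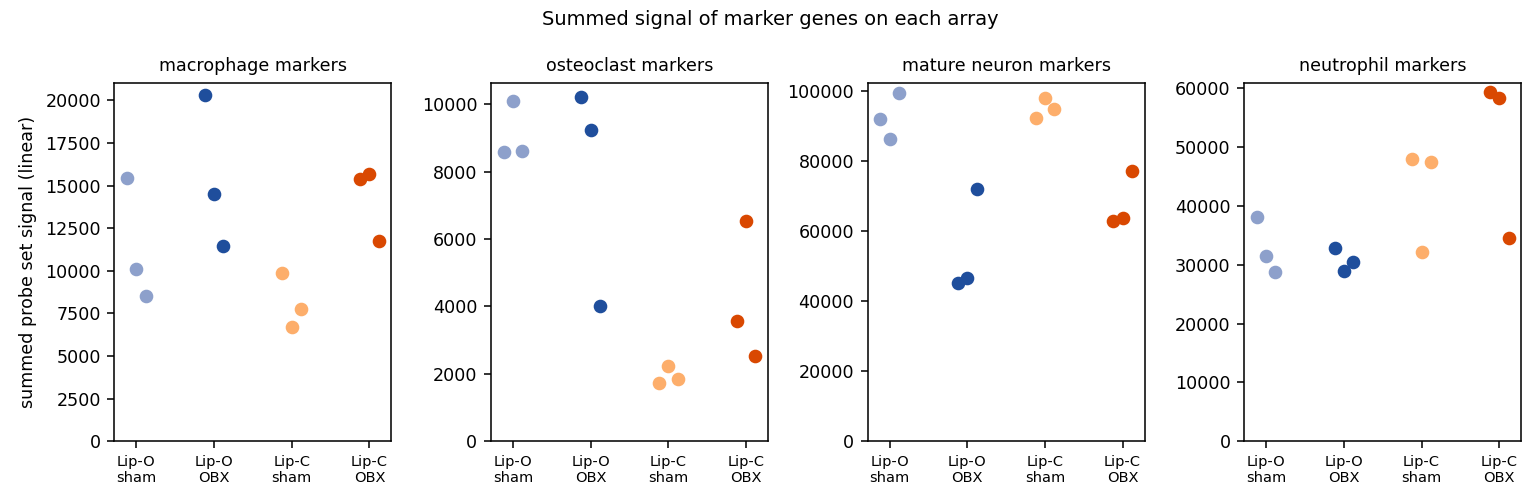
Summed probe set signal (linear scale, axes from 0) of macrophage, osteoclast, mature neuron and neutrophil markers on each of the 3 arrays of each group (replicates 1 to 3 from left to right). Macrophage markers are higher on all Lip-C OBX arrays than on any Lip-C sham array. They overlap between Lip-O sham and Lip-O OBX arrays, although each Lip-O OBX array is above the Lip-O sham array of the same number. The titles give these numbers and do not say that arrays were paired. Neuron markers are lower on every OBX array.

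The choice of probe set bears on some of these values. Of the 43 genes, 27 had several probe sets past the filter, with 43 probe sets beside those used. After OBX in Lip-O mice 28 of these 43 had the sign of the one used, and in Lip-C mice 31. For called genes it was 10 of 13 in Lip-O mice and 12 of 14 in Lip-C mice. A probe set of Fuca1 in Lip-O mice and of Ctsb in Lip-C mice went the opposite way at an unadjusted p under 0.05, with log2 changes of -0.94 and -0.45. The opposite sign at that level was also found for Cln3, Gaa, Ids, Sgsh and Tpp1 in Lip-O mice and for Arsb, Fuca1 and Gaa in Lip-C mice, genes that were not called through the probe set used. Of these opposite probe sets, those of Cln3, Gaa, Sgsh and Tpp1 in Lip-O mice and of Arsb in Lip-C mice passed when each probe set was tested. In that test 13 genes passed in Lip-O mice and 14 in Lip-C mice through any probe set, and Ctsl in Lip-O mice and Ctss and Asah1 in Lip-C mice did not pass. The share of all genes that pass through any probe set was not counted. The shares of all genes given elsewhere use a single probe set per gene and are no measure for these counts. All 3 probe sets of Ctsz passed in both comparisons when each probe set was tested, and so did all 3 of Grn. For Ctsb in Lip-C mice a second bright probe set (mean signal 8432) gave 0.28 ± 0.08 (adjusted p = 0.0496) in that test. The one used (mean signal 9914) had an adjusted p of 0.0543 there, and the opposite one had a mean signal of 777. The remaining probe sets of Ctsb gave -0.22 and 0.08 and did not pass.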

How the data were processed

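The authors deposited 1 linear intensity per probe set for each of 12 one-colour arrays, scaled to a common trimmed mean of 500 (from the values). Total RNA was converted to biotinylated cRNA, per the labels' protocols, and no source used here gives the probe summary method. Values were taken as log2(signal + 16). Of 45101 probe sets, 64 of them controls that were left out, 28986 were above percentile 40 of the array on 3 or more arrays. In the platform annotation 34945 probe sets had a single gene, 932 had several and 9160 had none, and 34741 matched the reference gene table (GRCm38.p6, used for names) by identifier. The probe set with the highest mean stood for its gene. A change on this scale understates that of dim genes. Signals of different genes are not compared with each other. Mean signals of probe sets serve to choose and tell apart those of the same gene. The marker sums add linear signals, so the brightest probe sets weigh most in them.

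The means of the 4 groups were fitted with limma 3.58.1 in R 4.3.3 (8 residual degrees of freedom and 2.56 from moderation), two-sided, with Benjamini-Hochberg adjustment over 13628 genes at 0.05. The number of arrays limits precision: log2 changes had a median standard error of 0.124. An exact permutation test of 3 against 3 arrays was not used, since it cannot pass the threshold. The model was tested on simulated data.

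The members and gene lists were chosen with earlier results of these data known. Genes named are those that passed, the 5 next in adjusted p in each comparison and partners of a called gene in the same step; the membrane, pump and remaining sugar hydrolase genes were named after their values were seen. Same-numbered arrays deviated together between Lip-O sham and Lip-O OBX arrays (correlations over genes of 0.13 to 0.31) and between the sham groups (0.1 to 0.33, each over 0.1 before rounding), and less so in the comparisons of OBX in Lip-C mice (0.04 to 0.16) and of Lip-C in OBX mice (0.08 to 0.25). Replicate numbers come from the sample titles, which do not say that arrays were paired. Alternatives tried were another pseudocount, no filter, quantile normalization, averaging all probe sets of a gene, no variance moderation, the arrays of the groups compared alone, a replicate block, each array left out in turn and, chosen after seeing the data, each probe set tested.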

Additional observations from a re-analysis of the deposited data

How the results depend on the processing

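The counts of lysosomal genes past the threshold after OBX moved most with the choice of arrays in the fit. In Lip-O mice the 10 calls became 4 with the arrays of the groups compared alone, and 4 to 10 when each array was left out in turn. In Lip-C mice the 12 calls became 4 to 15 when each array was left out. The other settings run gave 8 to 13 calls in Lip-O mice and 9 to 16 in Lip-C mice. Counts over all genes in these fits are not set beside them here, so a change particular to lysosomal genes is not shown. For both comparisons of Lip-C with Lip-O and for the interaction, the count was 0 under every planned setting. Testing each probe set, for which all genes were not counted, gave 4 genes for Lip-C in sham mice and 0 for the others. The fit on the groups compared alone was not run for the interaction, which needs all groups.

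With the replicate block, 13 genes passed after OBX in Lip-O mice and 16 in Lip-C mice. In every comparison the arrays share only a number. Same-numbered arrays deviated together less in the comparisons of OBX within Lip-C mice and of Lip-C within OBX mice. In the former the block added Ctsc (adjusted p = 0.0285), Lgmn (0.0298), Gla (0.0339) and Glb1 (0.0401). The block changed no other call of a lysosomal gene than these and the 3 given with the peptidases. Of 6 arrays, 4 correlated best with their own number in the former and 6 in the latter, a hint from the data and not the design. Beside leave-one-out fits, calls in Lip-O mice were lost for Ctsz (adjusted p = 0.0789), Ctsl (0.0882), Neu1 (0.0622), Grn (0.0551), Gusb (0.0622) and Fuca1 (0.0665) with the groups compared alone, for Neu1 (0.0518) and Gusb (0.0711) with probe sets averaged, for Ctsl (0.0522) with a pseudocount of 1 and (0.0778) without moderation, and for Ctsl (0.0792) and Fuca1 (0.0582) without the filter. In Lip-C mice they were lost for Ctsb (0.0744), Npc2 (0.0536), Asah1 (0.116) and Idua (0.0648) with the groups alone, for Ctsb (0.0626), Ctss (0.0745) and Asah1 (0.0786) without the filter, for Ctss (0.0812) without moderation, for Ctsb (0.0677) with quantile normalization and for Idua (0.143) with probe sets averaged.

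Of 888 alternative values of named genes over 47 gene and comparison pairs, 775 kept direction and side of the threshold, 94 lost the call, 17 gained it and 2 reversed. When all probe sets of a gene were averaged, Fuca1 after OBX in Lip-O mice was -0.109 (adjusted p = 0.576) and Ctsb after OBX in Lip-C mice -0.009 (adjusted p = 0.956), each of them having a probe set of opposite sign. No detection call or background estimate was used here, so no limit from signal over background is given.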
